A study of Mus musculus with 30 samples.

Results

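H3K18ac and H3K56ac, acetylation of lysines 18 and 56 of histone H3, were compared in wild-type mouse B cells through 4 lists of peaks from chromatin immunoprecipitation with sequencing (ChIP-seq), 2 for each mark. The peaks of the 4 lists were merged where they overlapped or touched, which gave 28702 regions. A region in both H3K18ac lists and in neither H3K56ac list was called H3K18ac-only, the reverse H3K56ac-only, and a region in all 4 lists shared. By this rule 3526 regions (12.3%) were H3K18ac-only, 1175 (4.09%) were H3K56ac-only and 11689 (40.7%) were shared. The other 12312 regions, 42.9%, were in 1 list of a mark but not in its replicate and belonged to none of the 3 classes.

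The B cells were B220+ splenocytes, isolated by flow sorting from C57BL/6 mice that carry floxed Crebbp alleles without the Cre transgene (CBPfl/fl:Mx-Cre-), so the floxed alleles are present in the wild-type cells too. B220 is an isoform of the surface phosphatase CD45 found on B cells and on some other cells. The lists used beside the 4 were 2 H3K27ac lists and 1 list for CBP, the acetyltransferase encoded by Crebbp, from the same kind of cells, and 2 lists each for H3K18ac, H3K56ac and H3K27ac from Crebbp-/- lymphoproliferative disease (LPD), taken as bulk, unsorted spleen from CBPfl/fl:Mx-Cre+ mice of the same strain. Mx-Cre is switched on by interferon signalling in many tissues, so deletion in these mice is not limited to B cells. LPD and B cells thus differ in genotype, disease and sorting, which cannot be told apart. Ages are not given in the labels, which also do not say whether replicates were separate animals, so every p-value below measures only the spread between libraries. Each mark was taken with its own antibody, so mark and antibody cannot be told apart either.

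Lysine 18 lies in the flexible tail of histone H3, and its acetylation by CBP and the related p300 is known at active promoters and enhancers. Lysine 56 lies in the globular core of the histone, close to where DNA enters and leaves the nucleosome. Its acetylation is linked to histone chaperones, nucleosome turnover and, in mammals, again to CBP and p300. Peaks of histone acetylation typically flank a transcription start site, with a dip over the start itself where nucleosomes are depleted.

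To show what lies under the classes, 6 promoter sequences are printed, 2 per class. They were chosen among the windows of a promoter table that covers 17251 of the 21631 protein-coding genes. Those under the regions with the longest mean covered length over the 2 lists of the mark (for shared regions, of H3K18ac) were taken. Regions with no window in the table were passed over, even where longer. Each window runs 5′ to 3′ on the strand of its gene, from 250 bases before the start to 50 after, from RefSeq on GRCm38.p6, the assembly also called mm10. CG pairs, the sites of DNA methylation, are in capitals. The windows are Fcrl1 on the plus strand of chr3:87376137-87376436, F9 on the plus strand of chrX:59999214-59999513, Xaf1 on the plus strand of chr11:72301379-72301678, Sema4b on the plus strand of chr7:80198338-80198637, H2-Aa on the minus strand of chr17:34287774-34288073 and Cytip on the minus strand of chr2:58160073-58160372.
Fcrl1 (H3K18ac-only): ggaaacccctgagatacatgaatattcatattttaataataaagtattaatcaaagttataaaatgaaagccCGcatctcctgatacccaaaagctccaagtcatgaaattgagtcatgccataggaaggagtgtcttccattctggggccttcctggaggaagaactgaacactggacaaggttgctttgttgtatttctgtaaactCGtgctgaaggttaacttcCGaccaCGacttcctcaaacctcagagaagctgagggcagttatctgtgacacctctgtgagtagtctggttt
F9 (H3K18ac-only): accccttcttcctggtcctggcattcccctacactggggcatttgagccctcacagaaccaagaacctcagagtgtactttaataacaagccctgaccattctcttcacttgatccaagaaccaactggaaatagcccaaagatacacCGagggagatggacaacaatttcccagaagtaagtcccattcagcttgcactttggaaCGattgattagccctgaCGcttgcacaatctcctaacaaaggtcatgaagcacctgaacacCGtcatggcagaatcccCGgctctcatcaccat
Xaf1 (H3K56ac-only): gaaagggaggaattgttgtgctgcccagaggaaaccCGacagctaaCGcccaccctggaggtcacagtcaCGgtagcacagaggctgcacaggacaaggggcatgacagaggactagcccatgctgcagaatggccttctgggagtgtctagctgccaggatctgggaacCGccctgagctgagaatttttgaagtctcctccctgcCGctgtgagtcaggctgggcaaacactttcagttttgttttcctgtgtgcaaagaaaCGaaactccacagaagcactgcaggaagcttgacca
Sema4b (H3K56ac-only): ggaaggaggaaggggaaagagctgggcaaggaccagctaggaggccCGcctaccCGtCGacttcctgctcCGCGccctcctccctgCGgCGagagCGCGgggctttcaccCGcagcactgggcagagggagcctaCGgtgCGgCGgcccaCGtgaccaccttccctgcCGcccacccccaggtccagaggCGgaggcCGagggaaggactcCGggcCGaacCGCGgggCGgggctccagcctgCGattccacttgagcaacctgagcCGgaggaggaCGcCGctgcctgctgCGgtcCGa
H2-Aa (shared): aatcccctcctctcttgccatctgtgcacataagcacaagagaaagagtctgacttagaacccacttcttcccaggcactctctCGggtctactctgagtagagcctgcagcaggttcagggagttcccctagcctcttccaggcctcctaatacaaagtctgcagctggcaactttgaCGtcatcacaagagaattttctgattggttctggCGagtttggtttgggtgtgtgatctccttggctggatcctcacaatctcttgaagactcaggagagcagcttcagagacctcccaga
Cytip (shared): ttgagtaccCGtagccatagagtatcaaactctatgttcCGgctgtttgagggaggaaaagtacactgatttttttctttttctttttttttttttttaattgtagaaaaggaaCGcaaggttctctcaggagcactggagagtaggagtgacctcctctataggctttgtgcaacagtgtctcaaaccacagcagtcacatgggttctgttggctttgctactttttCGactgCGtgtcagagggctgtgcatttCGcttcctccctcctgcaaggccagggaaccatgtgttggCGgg
CG pairs numbered 4 in the Fcrl1 window, 5 in F9, 6 in Xaf1, 28 in Sema4b, 3 in H2-Aa and 7 in Cytip, so 5 of the 6 windows fell below the median of 13 over all 21020 promoter windows of protein-coding genes. These 5 are not typical of their classes, whose median windows held 21 (H3K18ac-only), 21 (H3K56ac-only) and 24 (shared) CG pairs.

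The 4 lists were of similar length. H3K18ac peaks numbered 22485 and 23456 in replicates 1 and 2, and H3K56ac peaks 20392 and 18763. H3K18ac peaks covered 13.3 and 14.01 Mb, against 10.6 and 9.44 Mb for H3K56ac, and their median widths were 437 and 435.5 bp against 417 and 407 bp. H3K18ac was the higher mark in each of these measures and the lists of the marks did not overlap. The log2 ratio of H3K18ac to H3K56ac was 0.23 for peak number, 0.45 for covered length and 0.08 for median width. With 2 lists against 2, the smallest p of the two-sided exact permutation test is 0.333, and all 7 list measures reported here gave that value, also after Benjamini-Hochberg adjustment. Replicates of a mark covered more common sequence than lists of different marks: 67.6% of the bases of either list for the H3K18ac pair and 65.0% for the H3K56ac pair were in both, against 48.8 to 51.5% for the 4 pairs of different marks.

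B cell markers had acetylated regions throughout, and most markers of T and NK, myeloid, and erythroid and megakaryocyte cells did not. Regions overlapping protein-coding genes, or lying within 1 kb of their spans, were assigned to all such genes, and any other region to the closest gene end if that was at most 50 kb away. All 10 B cell markers had at least 1 of the 28702 regions, with summed peak lengths of 33.5 and 38.1 kb in the H3K18ac lists and 27.1 and 27.3 kb in the H3K56ac lists. Of 9 T and NK cell markers, only Cd3d and Klrb1c had one, and Cd3e, Cd4, Cd8a and Ncr1 were among the 7 with none. Their summed lengths were 2.66 and 2.78 kb for H3K18ac and 1.67 and 1.57 kb for H3K56ac. Of 10 myeloid markers 4 had a region (3.31 and 3.48 kb against 1.81 and 1.49 kb), while Lyz2, Mpo, Elane and Csf1r had none. Of 8 erythroid and megakaryocyte markers only Klf1 had one. Plasma cell markers went the other way, with a region at 3 of 5 (Prdm1, Sdc1 and Xbp1). Among all 21631 protein-coding genes, 11110 (51.4%) had one. The part of other cells in the results below was not tested.

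**Figure D1:**
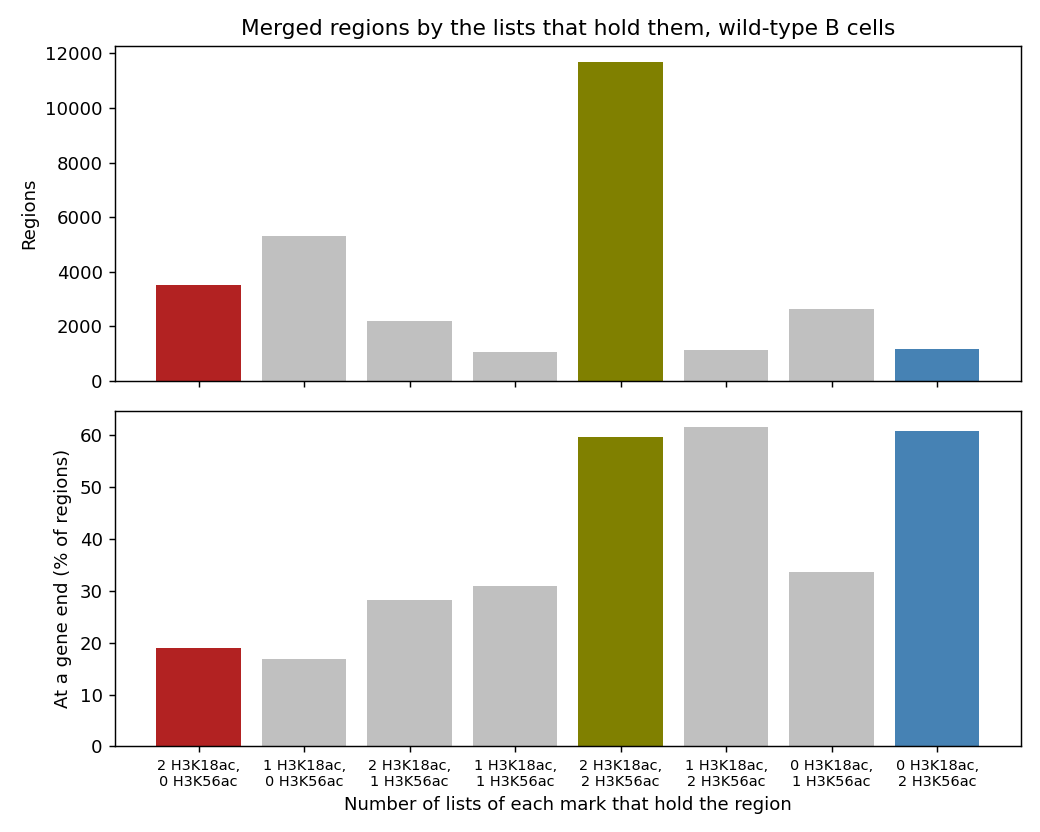
Number of merged regions (upper panel) and percentage of them within 1 kb of a gene end (lower panel), for each number of H3K18ac and H3K56ac lists that hold the region. Coloured bars are the 3 classes, with 3526 H3K18ac-only, 11689 shared and 1175 H3K56ac-only regions; grey bars are regions on which replicates disagree.

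The classes lay in different places. Of the H3K18ac-only regions, 669 (19.0%) were within 1 kb of either end of a protein-coding gene, here called a gene end, against 714 (60.8%) of the H3K56ac-only regions and 6971 (59.6%) of the shared ones. Over all 28702 regions the share was 41.0%. A further 40.9% of H3K18ac-only regions were inside a gene and 40.1% outside genes, while 28.9% of H3K56ac-only regions were inside a gene and 10.3% outside. The median distance to the nearest gene end was 12.3 kb for H3K18ac-only, 0.33 kb for H3K56ac-only and 0.177 kb for shared regions. Regions just outside the rule followed the same order: those in both H3K18ac lists and 1 H3K56ac list, 2180 in number, were at gene ends in 28.3% of cases, and the 1133 in both H3K56ac lists and 1 H3K18ac list in 61.5%.

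Taken whole, the same 4 lists differed in gene-end share too, which is no separate support, since the classes were built from them. In the H3K18ac lists 43.0 and 42.4% of peaks were at gene ends, and in the H3K56ac lists 51.1 and 53.0%. The marks did not overlap, and the difference of means, H3K18ac minus H3K56ac, was -9.31 percentage points (42.7 ± 0.425% against 52.0 ± 1.33%, SD, n = 2 each; exact permutation p = 0.333). LPD, whose lists took no part in the rule, gave 31.9 and 33.4% for H3K18ac and 43.0 and 42.3% for H3K56ac, again without overlap (difference of means -10.0 points).

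**Figure D2:**
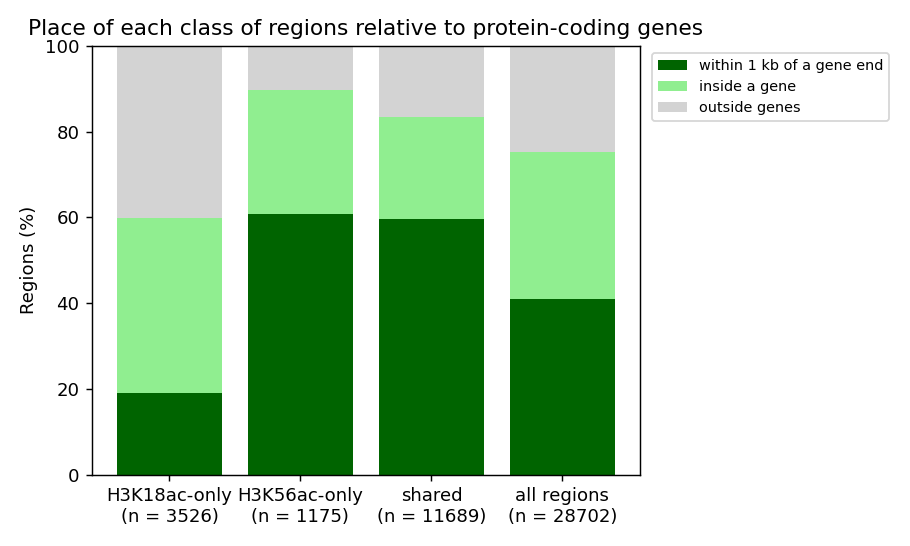
Percentage of regions of each class within 1 kb of a gene end, inside a gene and outside genes, with all 28702 regions at the right. Gene ends make up 19.0% of H3K18ac-only regions, and 60.8 and 59.6% of H3K56ac-only and shared regions.

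Shared regions were wider than regions with a single mark. Median widths were 835 bp for shared, 435 bp for H3K18ac-only and 396 bp for H3K56ac-only regions. Within each class the lists gave like values: median covered length in H3K18ac-only regions was 335 and 351 bp in the 2 H3K18ac lists, and in H3K56ac-only regions 337 and 309 bp in the 2 H3K56ac lists. Gene-end shares differed between the single-mark classes at every width. From 200 to 300 bp they were 24.2% of 513 H3K18ac-only and 60.0% of 220 H3K56ac-only regions, and at 700 bp or wider 12.7% of 458 and 63.3% of 90. Among regions with only 1 list in support, median widths were 246 bp (1 H3K18ac list, 5321 regions) and 243 bp (1 H3K56ac list, 2618 regions).

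Near start sites the marks also differed in position along the gene. The promoter table leaves out 1 chromosome and holds starts of only 17251 of the 21631 protein-coding genes. Among regions centred within 1 kb of a start in it, the median centre was upstream for 530 H3K18ac-only regions (an offset of -267.5 bp). It was 221.5 bp downstream for 639 H3K56ac-only regions and 190.5 bp downstream for 6078 shared ones. Centres of the H3K18ac-only, H3K56ac-only and shared regions lay downstream of the start in 38.9, 82.6 and 68.5% of cases. H3K18ac-only centres fell in 2 groups on either side of the start, with 71 regions from 400 to 300 bp upstream (bin -400 to -300), 10 from 0 to 100 bp downstream and 47 from 200 to 300 bp downstream. H3K56ac-only centres lay mostly downstream, with 168 from 200 to 300 bp downstream. A smaller group lay upstream, with 31 from 300 to 200 bp upstream and 12 from 200 to 100 bp upstream. Few H3K18ac-only regions touched a start itself, 74 of the 3446 on the chromosomes with starts (2.15%), against 201 of 1147 H3K56ac-only (17.5%) and 3691 of 11354 shared regions (32.5%). These are shares of whole classes, near a start or not. At least 1 base lay within 1 kb of a start in 16.5% of H3K18ac-only, 56.8% of H3K56ac-only and 55.2% of shared regions. Shared regions were also wider, which makes touching a start more likely.

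Single-mark regions often lay beside a shared one. Of H3K18ac-only regions 31.6% were within 1 kb of a shared region, rising to 51.0% of those at gene ends. For H3K56ac-only regions these shares were 21.0 and 23.0%. Without the regions this close to a shared one, 49.8% of 255 near-start H3K18ac-only regions and 86.4% of 492 H3K56ac-only regions were centred downstream, so the upstream median of the H3K18ac-only class moved to -10 bp, while that of H3K56ac-only was 216.5 bp downstream. The gene-end shares became 13.6 and 59.3%. Among all near-start H3K18ac-only regions, 47.4% were centred downstream when only peaks of at least 500 bp were used, and 51.7% of 172 when peaks within 500 bp were merged.

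Taken whole, the 4 lists that define the classes gave these values. Peaks within 1 kb of a start were centred downstream in 63.3 and 63.7% of cases for H3K18ac and in 69.06 and 69.08% for H3K56ac, and the median offsets were 162.8 and 162 bp against 193 and 196 bp. The marks did not overlap in either measure (difference of means -5.56 points and -32.1 bp, exact permutation p = 0.333 each, n = 2 lists a mark). In LPD the downstream shares were 64.5 and 65.6% for H3K18ac and 68.8 and 68.4% for H3K56ac, also without overlap. Around all 21020 start sites, coverage was highest 200 bp downstream in each of the 4 lists, where 28.4 and 29.5% of starts lay under an H3K18ac peak and 32.3 and 30.2% under an H3K56ac peak. At 500 bp upstream the order was reversed, with 16.4 and 16.9% for H3K18ac and 14.4 and 13.4% for H3K56ac. The ratio of coverage 500 bp downstream to 500 bp upstream was 1.16 and 1.14 for H3K18ac, and 1.47 and 1.46 for H3K56ac.

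**Figure D3:**
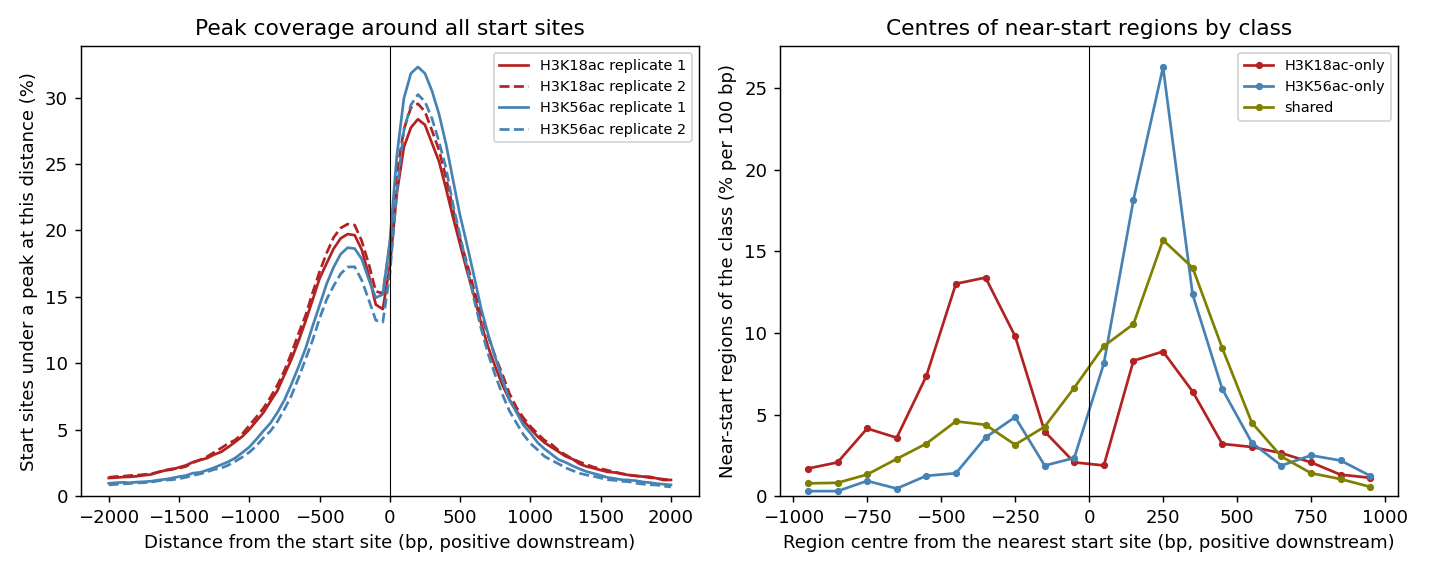
Left, percentage of 21020 start sites under a peak at each distance, for the 4 B cell lists; right, centres of near-start regions of each class, as percentage of the class per 100 bp. Coverage peaks 200 bp downstream in each list, H3K18ac lists are higher at 500 bp upstream but overlap with H3K56ac lists just before the start, and the H3K18ac-only class alone has its highest point upstream.

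Inside shared regions the marks differed in length. Both H3K18ac lists covered more than both H3K56ac lists in 5932 of 11689 shared regions (50.7%), and the reverse held in 1721 (14.7%). The median log2 ratio of H3K18ac to H3K56ac length was 0.21. H3K18ac was the longer mark in 41.2% of shared regions at gene ends, 59.0% inside genes and 73.2% outside genes, and H3K56ac in 19.6, 9.16 and 5.09%. The median ratios rose in the same order, 0.11, 0.36 and 0.52 on the log2 scale. Of 6078 shared regions near a start, the covered bases of H3K56ac lay further downstream in both lists in 1862 (30.6%), and those of H3K18ac in 1168 (19.2%), with a median shift of 10.9 bp.

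Where H3K18ac was the longer mark, the largest differences lay mostly away from gene ends. The widest excess was at chr17:6824235-6830227, outside protein-coding genes and nearest to Ezr, which encodes the membrane-cytoskeleton linker ezrin: H3K18ac covered 5742 and 5844 bp and H3K56ac 2667 and 2499 bp. Beside Ahnak, a large scaffold protein, at chr19:8981657-8986852 the lengths were 5084 and 4963 bp against 2367 and 2273 bp. The other 3 lay inside Dipk1a (4525 and 4298 bp against 1458 and 1980 bp), near Bcar3, an adaptor of integrin signalling (6228 and 6100 bp against 4290 and 3176 bp), and at Adgre5, the adhesion receptor CD97 (7275 and 7025 bp against 5137 and 4626 bp). In each of the 5 the lists of the marks did not overlap, as the choice of these regions requires.

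The largest differences in the other direction were all at gene ends. At the divergent pair Eef1b2, a translation elongation factor, and Ndufs1, a subunit of respiratory complex I (chr1:63176208-63177652), H3K56ac covered 1255 and 1394 bp and H3K18ac 338 and 363 bp. At Bad, which promotes apoptosis, the lengths were 1509 and 1502 bp against 361 and 670 bp. Ugcg, which makes glucosylceramide, had 1442 and 1144 bp of H3K56ac against 324 and 347 bp of H3K18ac. Anapc7, a subunit of the anaphase-promoting complex, had 1036 and 1339 bp against 244 and 404 bp. At Prob1 they were 2268 and 2419 bp against 729 and 771 bp. H3K27ac covered only 227 and 0 bp of the Prob1 region in B cells, and none of the 6 LPD lists had a peak there.

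The widest and the third widest shared regions lay over MHC class II genes, which present peptides to helper T cells. The widest, of 22495 bp, chr17:34286027-34308521, ran over the ends of H2-Aa and H2-Eb1, and the 4 lists covered 22302 and 22495 bp of it for H3K18ac and 20441 and 19916 bp for H3K56ac. CBP peaks covered 4077 bp of it. At H2-Ab1 the region was 7801 bp wide, with 7451 and 7145 bp of H3K18ac and 7296 and 7182 bp of H3K56ac, so here the lists of the marks overlapped. The second widest, chr13:111997605-112005506 (7902 bp), lay outside protein-coding genes with none within 50 kb. Others of the 10 widest lay near Zswim4 (7479 bp), Adgre5 (7276 bp), Lclat1 (6354 bp), Cd83, a marker of activated lymphocytes and dendritic cells (6300 bp), and Cytip, which regulates cell adhesion (6270 bp). The Cytip window printed above was covered whole by its region.

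Single-mark regions are ranked here by mean covered length over the 2 lists of their mark. At gene ends, the first H3K18ac-only region was at Il3ra, a receptor chain for interleukin 3, at chr14:14353564-14355523. H3K18ac covered 1655 and 1698 bp and H3K56ac 0 bp in both lists. H3K27ac covered only 581 and 749 bp of it in B cells, and none of the 6 LPD lists had a peak there. Fcrl1, an Fc receptor-like protein of B cells, had 1382 and 1643 bp of H3K18ac at chr3:87375929-87377698, with the printed promoter inside it, and 1770 bp of H3K27ac in both lists. In LPD this region also had H3K56ac, 917 and 1130 bp. F9, the gene of clotting factor IX, had 1549 and 1293 bp at chrX:59999259-60000836, and this was its only region. Il1r2, a decoy receptor for interleukin 1, had 1294 and 1020 bp over its annotated end, at chr1:40084663-40085974, and at Sec11c, a signal peptidase subunit, the 2 lists differed more, with 845 and 1540 bp.

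The widest H3K18ac-only region of all, chr17:39843622-39846188, lay outside protein-coding genes, 165 bp from Rn18s-rs5, an annotated pseudogene of 18S ribosomal RNA. H3K18ac covered 2021 and 2567 bp, a CBP peak covered all 2567 bp, and H3K27ac covered 0 bp in both B cell lists. Ribosomal DNA is highly repeated in the genome, and how reads with many matches were treated is not given in the sources used here. Other wide H3K18ac-only regions lay inside Hivep2, a zinc-finger regulator (1719 and 1864 bp), beside Trit1, a tRNA-modifying enzyme (1729 and 1660 bp), and inside Cubn, an endocytic receptor (1440 and 1712 bp). Each of these 3 had H3K27ac in both B cell lists.

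Rank for rank, the first H3K56ac-only regions at gene ends had shorter covered lengths than the H3K18ac-only ones. Median widths of the classes at gene ends were nearly equal, 401.5 bp for H3K56ac-only and 409 bp for H3K18ac-only. Xaf1, an interferon-induced gene that promotes apoptosis, had 1219 and 1102 bp of H3K56ac at chr11:72301346-72302674 and 0 bp of H3K18ac. This was the only region of the gene in the 4 lists, yet H3K27ac covered 1052 and 1212 bp of it, and in LPD H3K18ac covered 1226 and 1201 bp. Zmat3, a p53 target, had 967 and 1037 bp, Dlat, a subunit of pyruvate dehydrogenase, 988 and 905 bp, and Taf12, a subunit of the general factor TFIID, 1082 and 722 bp. Itga5, the integrin alpha 5 chain, had 1100 and 685 bp and was without H3K27ac in both B cell lists. Inside genes, Sema4b, a semaphorin, had 990 and 971 bp at an internal start (chr7:80198366-80199421), Arhgap27 968 and 984 bp, and Ccm2 1048 and 857 bp. All 8 had H3K18ac peaks in both LPD lists.

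Most regions of each class also carried H3K27ac, the acetylation most often used to mark active promoters and enhancers. H3K27ac was in both B cell lists in 77.7% of H3K18ac-only, 80.4% of H3K56ac-only and 99.0% of shared regions, against 82.7% of all. Among H3K56ac-only regions it was in 86.0% of those at gene ends and 71.8% of those away from them. For H3K18ac-only regions these shares were 77.0 and 77.9%. Taken whole, the single-mark classes thus lay closer to each other in H3K27ac than in their place. Within places they were less alike. The H3K18ac-only share was lower at gene ends, where all regions had 90.2%. It was higher inside genes (80.1 against 76.8%) and outside genes (75.7 against 57.9% of 121).

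CBP peaks were mostly in shared regions. The CBP list, 1 library with no replicate, held exactly 1000 peaks. Whether it was limited to that number is not given in the sources used here, and a limit would lower every share with CBP. Of these, 696 touched a shared region, 53 an H3K18ac-only and 6 an H3K56ac-only region, and 197 touched no region of the 4 lists. Seen from the regions, 717 shared (6.13%), 54 H3K18ac-only (1.53%) and 6 H3K56ac-only regions (0.511%) had a CBP peak. Away from gene ends CBP was on 38 of 2857 H3K18ac-only and 0 of 461 H3K56ac-only regions. In shared regions with a CBP peak, H3K18ac was the longer mark in 75.7% of 717, against 49.1% of 10972 without. Shared regions were also the widest class, and the part of width was not tested. The bin of 700 bp or wider held shared regions of up to 22495 bp and H3K18ac-only regions of up to 2567 bp. In each width bin the share with CBP was highest for shared regions, with only 74 of them from 200 to 300 bp. From 300 to 400 bp, where the gap to H3K18ac-only was smallest, it was 1.63% of 492, against 1.29% of 931 H3K18ac-only and 0.262% of 382 H3K56ac-only regions, and at 700 bp or wider 8.02% of 7490 against 2.18% of 458 and 0 of 90.

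In LPD, each single-mark class had more peaks of its own mark than of the other, but H3K18ac-only regions had fewer H3K18ac peaks than regions as a whole. Over all 28702 regions the shares with a peak were 78.6 and 69.5% in the LPD H3K18ac lists and 63.0 and 65.2% in the LPD H3K56ac lists. H3K18ac-only regions had a peak in 72.8 and 58.6% of cases in the 2 LPD H3K18ac lists, and in 37.1 and 39.7% in the LPD H3K56ac lists (difference of means 27.3 points, exact permutation p = 0.333, n = 2 lists a mark). H3K56ac-only regions had one in 71.3 and 54.1% in the H3K18ac lists and in 75.3 and 77.8% in the H3K56ac lists (-13.8 points, p = 0.333 by the same exact test). The LPD lists of the marks did not overlap in either class. At gene ends the difference for H3K56ac-only regions was -21.1 points, with 77.2 and 58.5% against 87.7 and 90.3%. Over all gene-end regions these shares were 88.7 and 80.7% against 85.0 and 86.6%. For H3K56ac-only regions away from gene ends the lists overlapped, with 62.3 and 47.3% against 56.2 and 58.4%. LPD H3K18ac lists were longer than B cell ones, with 39529 and 35247 peaks against 22485 and 23456.

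With the same rule applied to the 4 LPD lists, few regions kept a single-mark class. Of the 3526 H3K18ac-only regions, 588 (16.7%) were H3K18ac-only in LPD, 1 was H3K56ac-only, 1106 (31.4%) were shared and 914 (25.9%) had no peak of either mark. Of the 1175 H3K56ac-only regions, 90 (7.66%) were H3K56ac-only, 14 were H3K18ac-only, 578 (49.2%) were shared and 177 (15.1%) had no peak. All 14 that switched lay away from gene ends. Shared regions were shared again in 10219 cases (87.4%). LPD H3K27ac was in both lists in 38.7% of H3K18ac-only, 68.0% of H3K56ac-only and 88.5% of shared regions, against 62.1% of all. At gene ends the shares of H3K18ac-only, H3K56ac-only and all regions were 51.4, 78.7 and 82.2%. They were 40.1, 55.9 and 53.3% inside genes and 31.2, 38.8 and 41.0% outside genes. The higher share of the whole H3K56ac-only class thus went with its place at gene ends.

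**Figure D4:**
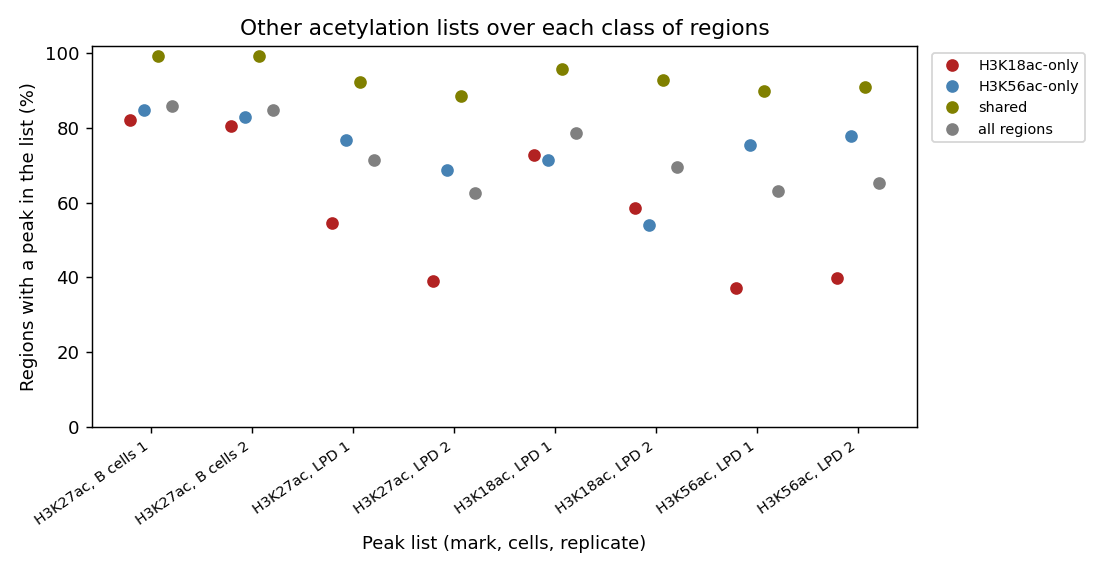
Percentage of regions of each class with a peak in each H3K27ac list of B cells and each list of LPD. In the LPD H3K56ac lists the H3K18ac-only class is lowest, at 37.1 and 39.7%, while in the B cell H3K27ac lists the 2 single-mark classes differ by under 3 percentage points.

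Of 21631 protein-coding genes, 11110 had at least 1 region. An H3K18ac-only region was assigned to 2230 genes (10.3%), an H3K56ac-only region to 1216 (5.62%) and a shared region to 8178 (37.8%). Both kinds of single-mark region were assigned to 213 genes, which are 17.5% of genes with an H3K56ac-only region, while 10.3% of all genes and 20.1% of genes with any region had an H3K18ac-only one. Of genes with an H3K18ac-only region 600 (26.9%) had no shared region, and of genes with an H3K56ac-only region 618 (50.8%). H3K18ac-only regions were more often several to a gene: 212 genes had 3 or more, against 10 for H3K56ac-only.

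Genes with the most H3K18ac-only sequence included Foxp1 and Rgs13. Foxp1, a transcription factor needed in B cell development, had 10 H3K18ac-only regions, all inside the gene, beside 23 shared ones. Over all its regions, summed peak lengths were 37.6 and 39.8 kb for H3K18ac and 25.5 and 23.0 kb for H3K56ac. Rgs13, a regulator of chemokine signalling in germinal centre B cells, had 8, with 5.34 and 5.35 kb against 1.005 and 0.559 kb. Hivep2 had 5, Ago2, the effector of microRNAs, 7, Rad51b, a DNA repair gene, 7, Ppfibp2 8, Xylt1 6, Ankrd55 6 and Il22ra2, a soluble receptor for interleukin 22, 4. Long genes can collect many regions under this assignment.

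Genes with the most H3K56ac-only sequence had fewer such regions. Snx29 had 5, Cyth1, an exchange factor of ARF GTPases in lymphocyte adhesion, 4, and Chrna9, Dpp4 and Chd9 3 each. Tnrc18, H60b, Prkce and Cdkn2c had 2, and Xaf1 had 1. At Dpp4, the peptidase CD26, H3K56ac covered 1.40 and 2.40 kb and H3K18ac 0.999 and 0.502 kb. At Cdkn2c, the inhibitor p18 of cyclin D kinases, the lengths were 2.22 and 2.65 kb against 0.412 and 1.36 kb. In both genes the lists of the marks did not overlap. H3K56ac was also the longer mark without overlap at Chd9, Tnrc18, H60b and Xaf1. At Snx29 and Chrna9 H3K18ac was the longer mark without overlap. The lengths were 2.34 and 2.47 kb of H3K18ac against 1.87 and 2.26 kb of H3K56ac at Snx29. At Chrna9 they were 4.795 and 5.69 kb against 3.998 and 3.993 kb. The lists overlapped at Cyth1 and Prkce. Chrna9 carried single-mark regions of both kinds: 3 H3K56ac-only regions in a row within chr5:65925666-65927887 outside the gene, and 3 H3K18ac-only regions, such as chr5:65950304-65951060 inside it.

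Crebbp and Ep300, the genes of the CBP and p300 acetyltransferases, differed in the classes of their regions. Crebbp had 3 regions, none of them in the 3 classes, with 0.951 and 1.24 kb of H3K18ac and 0.725 and 0.599 kb of H3K56ac. Ep300 had 3 shared regions, with 2.18 and 2.03 kb against 1.75 and 1.75 kb. In both genes H3K18ac was the longer mark without overlap.

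Gene lists of signalling and cell identity carried H3K18ac-only regions in larger shares than genes as a whole. Among 20 immediate early genes, which respond within minutes to a stimulus, 12 had an H3K18ac-only region and 1, Ier2, an H3K56ac-only one, beside 10.3 and 5.62% of all genes. Fos, an AP-1 subunit, had 4 H3K18ac-only regions and summed lengths of 14.1 and 14.3 kb for H3K18ac against 6.99 and 6.60 kb for H3K56ac. Atf3 had 4 (8.72 and 8.14 kb against 4.11 and 3.90 kb) and Ier5 had 3. Of 17 chemokine receptor and homing genes, 10 had an H3K18ac-only region and 2, Cd44 and S1pr3, an H3K56ac-only one. S1pr1, the receptor that draws lymphocytes out of lymphoid tissue, had 6, all outside the gene (11.03 and 10.1 kb against 3.69 and 4.002 kb), Cd44 had 5 and Ccr7, the receptor for homing to lymph nodes, 3 (13.0 and 13.8 kb against 6.77 and 5.43 kb). Of 25 genes of B cell receptor signalling, 14 had an H3K18ac-only and 3 an H3K56ac-only region, Prkcb and Vav2 among the latter.

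The other B cell lists differed among themselves. Of 30 B cell transcription factors, 18 had an H3K18ac-only, 10 an H3K56ac-only and 26 a shared region. Bach2, a repressor of plasma cell fate, had 6 H3K18ac-only regions (12.8 and 14.1 kb against 8.71 and 6.84 kb), and Runx1 2. Pax5, the B cell identity factor, had 2 H3K56ac-only regions and none of the other kind. Its H3K18ac lengths, 8.15 and 9.11 kb, nevertheless exceeded those of H3K56ac, 7.20 and 7.93 kb. Ikzf1 had 3 H3K56ac-only and 2 H3K18ac-only regions, Bcl11a 2 and 0, and Irf8 2 and 1. Among B cell markers, Cd22, Cd37, Ebf1 and Ptprc had an H3K18ac-only region, and Ebf1 and Pax5 were among those with an H3K56ac-only region. All 14 MHC class II genes had a shared region, 7 an H3K18ac-only one and none an H3K56ac-only one. Ciita, the master activator of these genes, had 2 H3K18ac-only regions, both inside the gene (1.41 and 2.29 kb against 0.325 and 0.697 kb). All 18 NF-kB genes had a shared region, 5 an H3K18ac-only and 3 an H3K56ac-only one. Nfkbie, an inhibitor of NF-kB, had both.

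Ribosomal protein genes mostly had shared regions, and few had a single-mark region. Of 48 cytosolic ribosomal protein genes, 45 had a shared, 3 (6.25%) an H3K18ac-only and 6 (12.5%) an H3K56ac-only region. Among all genes the single-mark shares were 10.3 and 5.62%, so the differences rest on few genes. Rps24 (chr14:24490775-24491392, 614 and 586 bp of H3K56ac) and Rps19 (chr7:24884628-24885030, 311 and 391 bp) had no other region, so no H3K18ac list had a peak assigned to them. Of 30 mitochondrial ribosomal protein genes, 21 had a shared, 2 an H3K18ac-only and 2 an H3K56ac-only region. Of 22 cell division genes, 9 had a shared, 4 (18.2%) an H3K18ac-only and 0 an H3K56ac-only region, again on few genes. Mki67, Top2a and Cdk1 were among the 9 with no region. Of 28 genes of acetyltransferases, deacetylases and histone chaperones, 19 had a shared, 6 an H3K18ac-only and 3 (Hdac2, Kat5 and Kat6a) an H3K56ac-only region. In the remaining lists the counts were small: 1 of 20 non-blood genes (Mbp), 2 of 10 myeloid markers (Csf3r and Itgam), 1 of 9 T and NK cell markers (Klrb1c), and 0 of 5 plasma cell and 0 of 8 erythroid and megakaryocyte markers had an H3K18ac-only region, and no gene of these lists an H3K56ac-only one.

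Summed over each list, the length of H3K18ac relative to H3K56ac did not simply follow these counts. The log2 ratio was 0.93 for chemokine receptors and homing (72.2 and 77.4 kb against 42.3 and 36.4 kb), 0.75 for immediate early genes (120.4 and 122.1 kb against 74.2 and 70.2 kb) and 0.67 for B cell receptor signalling, with 0.45 over all regions. It was -0.09 for cytosolic ribosomal proteins (40.4 and 43.0 kb against 45.8 and 43.1 kb) and -0.26 for mitochondrial ribosomal proteins (15.5 and 17.3 kb against 20.1 and 19.1 kb). The lists of the marks did not overlap in any of these 5 gene lists. MHC class II genes (0.35) and B cell markers (0.40) lay below the value of all regions despite their H3K18ac-only shares. Lists with few regions had some of the highest ratios, 1.12 for non-blood genes, 1.04 for myeloid markers and 0.75 for T and NK cell markers.

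**Figure D5:**
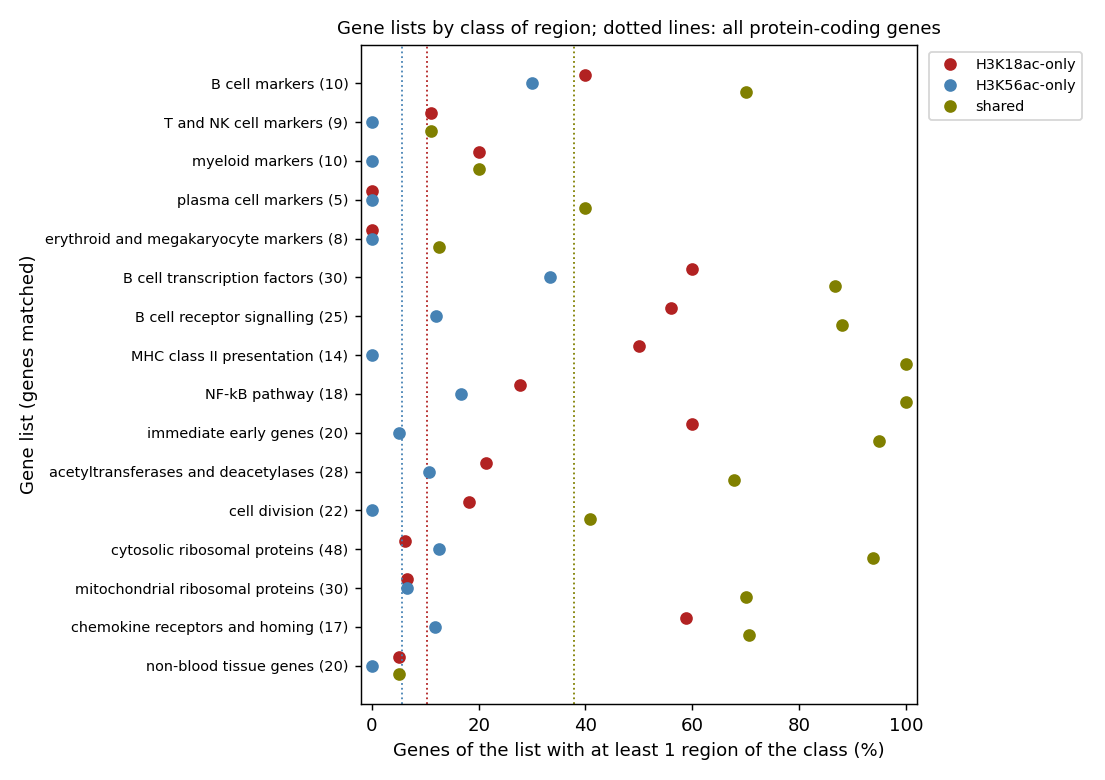
Percentage of the genes of each list with at least 1 region of each class; dotted lines give all protein-coding genes (10.3% H3K18ac-only, 5.62% H3K56ac-only, 37.8% shared). Immediate early genes reach 60.0% for H3K18ac-only regions, and cytosolic ribosomal proteins 93.8% for shared regions.

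Promoters of the classes differed in some short motifs and in the share of CG-poor windows. An H3K18ac-only region overlapped 353 of the 21020 promoter windows, an H3K56ac-only region 452 and a shared region 6000. The median number of CG pairs was 21, 21 and 24, against 6 in the 13140 windows with no region. Windows with under 10 CG pairs made up 17.6% of the H3K18ac-only, 8.19% of the H3K56ac-only and 7.47% of the shared class. GGGCGG, a GC box, was in 68.8, 65.7 and 69.3%, against 46.6% of all, and CCAAT in 43.1, 39.8 and 36.5%, against 38.5% of all. The motif TGACGTCA, the binding sequence of CREB and ATF factors, which recruit CBP, was found on either strand in 19 windows of the H3K18ac-only class (5.38%), in 2 of the H3K56ac-only class (0.442%) and in 311 of the shared class (5.18%), against 2.26% of all windows. It is its own reverse complement. The printed H2-Aa window holds it. CCGGAAG, a core sequence of ETS factors, was in 16.1% of H3K18ac-only, 24.8% of H3K56ac-only and 25.5% of shared windows, against 11.7% of all. GGAAGTG, which has the bases GGAAG in common with it, was in 16.1, 11.5 and 19.3%, against 12.1% of all. The order of the single-mark classes was thus reversed between these 2 motifs. TATAAA was in 10.2, 6.19 and 5.30%, against 12.7% of all. TGACTCA, an AP-1 sequence, was in 1.42, 2.43 and 2.73%, against 4.69% of all, and both the Fcrl1 and the Xaf1 windows hold it. Only 26 H3K18ac-only and 32 H3K56ac-only windows were covered whole by their region. Matches are given as a description, and no binding was measured there.

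The X chromosome stood apart from the autosomes. Of its 503 regions 107 (21.3%) were H3K18ac-only and 5 (0.994%) H3K56ac-only, against 10.3 to 14.5% and 2.76 to 5.84% on the other chromosomes with regions. Shared regions made up 31.2% there, against 39.2 to 44.5% elsewhere. The single-mark shares of the X chromosome depended on the lists used. Without H3K18ac replicate 1 or 2 they were 41.7 or 38.8% H3K18ac-only and 2.16 or 1.83% H3K56ac-only, and without H3K56ac replicate 1 or 2, 30.0 or 25.6% and 2.42 or 2.41%. These classes also grow on all chromosomes when a list is left out. With only peaks of at least 500 bp, 31.7% of 183 regions were H3K18ac-only and 0 were H3K56ac-only. In whole lists, 1.819 and 1.820% of H3K18ac peaks were on the X chromosome and 1.26 and 1.22% of H3K56ac peaks, without overlap (difference of means 0.584 points, exact permutation p = 0.333, n = 2 lists a mark). In LPD the lists overlapped, with 1.53 and 1.29% against 1.42 and 1.43%. The H3K27ac lists of B cells had 2.24 and 2.17%. Whether the B cell libraries of the marks came from animals of the same sex is not given in the sources used here, and its part was not tested.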

How the data were processed

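Per the labels, B cell libraries are flow-sorted and LPD libraries bulk spleen. The submitters' processing notes name Bowtie2 2.1.0, MACS2 2.0.10, bedtools, Picard and the build mm10, while settings are not given in the sources used here. Each deposited list holds peak positions only (chromosome, start, end), so the other value a peak list can carry, a height, score or p-value, is not in it and read depth is unknown. The narrowest peak was 200 bp in each list. Of 30 samples, 15 had a list, and 13 of those lists were read. The 2 progenitor lists, the input and the RNA-seq libraries were not used here.

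Python 3.11.15 with pandas 2.3.3, NumPy 2.4.6 and SciPy 1.17.1 served for merging, classes, distances and exact tests, and Matplotlib 3.10.9 for plots. An overlap of 1 bp with a peak put a region in that list. Genes are the 21631 protein-coding genes of the RefSeq table for GRCm38.p6, without those of the Y chromosome and the mitochondria, and 314 of 315 list entries matched one. Start sites come from the RefSeq promoter table, which can hold several starts a gene and has none for some genes (17251 genes are covered). Classes were not compared by a test, since regions are not replicates.

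Per single-mark class, the named genes are the 10 with the most class sequence, the 5 widest regions at gene ends and, per gene list, up to 3 members. To these come Crebbp and Ep300, the 10 widest shared regions, the 5 per direction with the largest difference in length, and 2 promoters a class. Genes named with a count of list members, the 5 widest single-mark regions overall and markers with no region are outside that rule and were named after their values were seen. A few of the genes so chosen are left unreported. Members and lists were chosen with earlier results of these data known. Start offsets, downstream shares and the X chromosome were added after the plan. The scripts were tested on simulated data.

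Whether equal replicate numbers of the marks form pairs is not given in the labels. Over 11689 shared regions the correlation between the marks of the difference in covered length of replicates 1 and 2 was -0.013. This cannot decide the question, since covered length does not identify an animal or a batch.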

Additional observations from a re-analysis of the deposited data

How the results depend on the processing

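The order of the single-mark classes held under every alternative run: H3K56ac-only was higher than H3K18ac-only in gene-end share under all 12 and in downstream share under all 9. Each list measure kept its sign, with p at or above 0.333, under the 500 bp minimum, equal list lengths (where peak number is equal by construction), other gene-end distances and without each list. With a replicate block the exact sign-flip test over 2 pairs gave p = 0.50 for all 7 list measures, the smallest it can give, with the same differences (-9.31 points for the gene-end share). Requiring 200 bp of coverage, which is counted in the 12 and in the 9, could change nothing, as no peak is narrower. A single nearest gene gave 2023, 1020 and 7215 genes for H3K18ac-only, H3K56ac-only and shared, the order of all triples here. With only peaks of at least 500 bp the classes numbered 2035, 562 and 4509, median widths were 807, 719.5 and 1228 bp, gene-end shares 29.1, 77.6 and 65.3%, downstream shares 47.4, 83.5 and 70.7% and shares with a CBP peak 4.72, 1.78 and 10.4%. H3K27ac was then in both B cell lists in 96.2, 98.4 and 99.98%, and LPD lists held H3K18ac in 84.0, 90.6 and 97.5%, H3K56ac in 65.8, 94.1 and 95.5% and H3K27ac in 67.1, 92.0 and 95.1%. With the widest 18763 peaks of each list they numbered 2416, 1654 and 10617, median widths were 502, 417 and 878 bp, gene-end shares 18.6, 64.1 and 59.6%, downstream shares 36.6, 80.3 and 68.2% and shares with a CBP peak 1.90, 0.484 and 6.58%. H3K27ac was then in both B cell lists in 80.9, 84.8 and 99.4%, and LPD lists held H3K18ac in 63.3, 62.6 and 93.6%, H3K56ac in 36.1, 76.7 and 89.4% and H3K27ac in 41.3, 73.5 and 89.1%. With peaks merged within 500 bp they numbered 1825, 814 and 9951, median widths were 652, 446 and 1328 bp, gene-end shares 13.8, 58.1 and 60.6%, downstream shares 51.7, 85.1 and 66.6% and shares with a CBP peak 1.42, 0.614 and 6.64%. H3K27ac was then in both B cell lists in 72.9, 77.6 and 99.0%, and LPD lists held H3K18ac in 57.8, 51.8 and 93.3%, H3K56ac in 33.2, 69.7 and 89.7% and H3K27ac in 35.9, 66.2 and 89.2%. H3K18ac and H3K56ac were the longer mark in 56.5 and 9.76% of shared regions with the 500 bp minimum, 53.2 and 12.9% with equal lists, 50.8 and 15.5% with merging and 22.2 and 5.56% when the means had to differ 1.5-fold. Gene ends within 500 bp gave gene-end shares of 15.1, 54.6 and 56.2%, and within 2500 bp 27.3, 66.7 and 64.6%. In windows covered whole, CCGGAAG was in 3.85, 21.9 and 28.3% and TGACGTCA in 3.85, 0.00 and 6.77%. In analyses chosen after seeing the data, single-mark regions more than 1 kb from a shared one had gene-end shares of 13.6 and 59.3% and downstream shares of 49.8 and 86.4%, and without the X chromosome the classes numbered 3419, 1170 and 11532. 

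Without a list the rule asks for 1 list fewer, so classes grow by construction. H3K18ac-only regions numbered 7159 and 6407 without H3K18ac replicate 1 or 2 and 4998 and 4311 without H3K56ac replicate 1 or 2, H3K56ac-only regions 1693, 1866, 2238 and 2949, and shared regions 12469 to 13158. Over these 4, the class ranges were 287 to 448, 266 to 411 and 747 to 777 bp in width, 17.9 to 22.3, 45.6 to 62.1 and 56.4 to 59.5% at gene ends, 41.0 to 43.1, 77.1 to 81.0 and 67.1 to 69.1% downstream, 0.922 to 1.70, 0.373 to 0.532 and 5.69 to 5.87% with CBP and 68.2 to 82.2, 68.2 to 84.1 and 98.4 to 98.8% with H3K27ac. For LPD they were 49.5 to 62.7, 43.8 to 61.4 and 90.7 to 92.0% with H3K18ac, 27.7 to 39.7, 54.5 to 74.3 and 85.1 to 88.1% with H3K56ac and 33.7 to 45.2, 54.1 to 71.3 and 85.4 to 87.8% with H3K27ac. H3K18ac was the longer mark in 57.3 to 63.7% and H3K56ac in 18.6 to 25.03% of shared regions. The lists carry no depth, so a region without a peak of a mark may hold acetylation below the calling threshold, and in 42.9% of the merged regions the replicates of at least 1 mark differed. With 2 lists a mark no list measure could pass a 0.05 threshold.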
